A study of Mus musculus with 24 samples.

Results

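The secreted Wnt ligands, their Frizzled receptors and the secreted inhibitors of the Sfrp and Dkk families were followed in mouse embryonic stem cells (ESCs) that lack Tet proteins, before and after withdrawal of leukemia inhibitory factor (LIF). The members were all gene symbols of the form Wnt, Fzd, Sfrp or Dkk followed by a number (with a or b for Wnt), without regard to their levels. This rule found 37 of the 22926 symbols in the count tables, namely 19 Wnt ligands, 10 Frizzled receptors, 4 Sfrp genes and 4 Dkk genes. A filter on low counts left 24 members for the tests among D0 libraries and 33 for the tests among D6 libraries and between days. Wnt1, Wnt8b, Dkk2 and Dkk4 passed in none of them. Wnt2, Wnt2b, Wnt4, Wnt7a, Wnt8a, Wnt9b, Wnt10b, Wnt16 and Dkk1 passed with the D6 libraries included but not among the D0 libraries alone, so a higher level at D6 was built into their presence in the test.

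Polyadenylated RNA was sequenced from 24 libraries, 12 of undifferentiated ESCs (D0) and 12 of cells after 6 days of LIF withdrawal (D6). The 12 libraries of a day are 3 WT clones, 3 Tet1-/- clones and 2 clones each of Tet2-/-, of DKO, which lacks Tet1 with Tet2, and of TKO, which also lacks Tet3. WT and edited clones alike descend from 1 parental clone of 129/SVj-derived, gelatin-grown ESCs with an eGFP reporter in Pou5f1 (Oct4), and the deletions were made with CRISPR/Cas9. The same clones were sequenced at both days (reading the label of a DKO clone at D6 as lacking its point), apart from Tet1-/-, where clone 2.3 has a D0 library but no D6 library and clone 2.2 the reverse. In both Tet2-/- clones a single edited Tet2 allele was located when they were made, and whether the other allele carries a larger deletion was not analysed here. Each group is therefore a small number of edited clones of a single line, and p-values measure the spread between those clones. How the libraries of each day were batched is not given in the sources used here, so day and batch cannot be told apart.

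Libraries held 18400463 to 37290208 counts. Levels are CPM, library-size scaled counts that use edgeR's TMM factors. The upper limit behind a listed 0 is 3 counts, or 0.0814 to 0.151 CPM (counting error only). The deletions left transcripts that were counted. Tet2 stood at 8.16 to 55.7 CPM in the D0 libraries with a Tet2 deletion and 84 to 113 CPM in the others, while Tet1 overlapped between D0 libraries with a Tet1 deletion (41.7 to 568 CPM) and those without (220.3 to 457 CPM), and at D6 Tet2 in Tet2-/- (15.9 to 16.6 CPM) was not below WT (12.3 to 16 CPM). Because the edits are small insertions or deletions, RNA counts check the genotype labels only in part. By mean chi-square per gene, D6 WT replicate 1 (clone O4.2) stood apart from the other WT libraries of D6 (53.1 and 54.8, against 14.5 between those), and its ligand sum was 127 CPM against 229 and 287 CPM. The TKO libraries also differed at D0 (97.6) and D6 (59.4), and the Tet1-/- libraries at D6 (38.6 to 81.5), while all other replicate pairs lay between 8.02 and 23.3. Results without single libraries stand beside those they moved. The ESC label was borne out at D0, where 8 markers of undifferentiated ESCs, Pou5f1 and Nanog among them, summed to 4296 to 4794 CPM in every library.

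Wnt proteins are secreted, lipid-modified ligands that bind the cysteine-rich domain of Frizzled receptors on nearby cells. With the co-receptors Lrp5 or Lrp6 this stabilises beta-catenin, which acts with Tcf/Lef factors on target genes such as Axin2, while other Wnt signals run through Ror receptors and planar cell polarity proteins without beta-catenin. Sfrp proteins carry a Frizzled-like domain and bind Wnt ligands outside the cell, and Dkk1 blocks the Lrp co-receptors. In the mouse embryo Wnt3 is required for the primitive streak, from which mesoderm and endoderm arise, and T (Brachyury) is a target of this signal. In ESC cultures Wnt signals are known both for upholding self-renewal and for leading cells into mesendoderm.

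Several ligand genes are neighbours in the genome (build mm9, gene models of GENCODE vM1). Wnt6 (chr1:74818466-74831893, forward strand) lies 6.2 kb from Wnt10a (chr1:74838090-74850753, forward strand), Wnt3a (chr11:59061535-59104254, reverse strand) lies 16.2 kb from Wnt9a (chr11:59120430-59147054, forward strand), Wnt3 (chr11:103635464-103679271, forward strand) lies 24.3 kb from Wnt9b (chr11:103588678-103611135, reverse strand), and Wnt1 (chr15:98620288-98624268, forward strand) lies 11.7 kb from Wnt10b (chr15:98602184-98608581, reverse strand). Wnt11 (chr7:105983622-106003705, forward strand), Sfrp2 (chr3:83570243-83578238, forward strand) and Sfrp4 (chr13:19714973-19724863, forward strand) stand apart from the other members.

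Promoter windows of RefSeq (250 bases before to 50 after a transcription start, table of GRCm38.p6) were found for 25 of the 37 members, 28 windows in all, and each matched a single place in mm9, whose coordinates are given here. The windows of Wnt6, Wnt9a, Wnt11 and Sfrp2 are shown because these genes changed differently over the days in Tet2-/- than in WT, and because Tet proteins act on CG dinucleotides, which are in capitals. Sfrp4, the fifth such gene, is named only.

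Wnt6: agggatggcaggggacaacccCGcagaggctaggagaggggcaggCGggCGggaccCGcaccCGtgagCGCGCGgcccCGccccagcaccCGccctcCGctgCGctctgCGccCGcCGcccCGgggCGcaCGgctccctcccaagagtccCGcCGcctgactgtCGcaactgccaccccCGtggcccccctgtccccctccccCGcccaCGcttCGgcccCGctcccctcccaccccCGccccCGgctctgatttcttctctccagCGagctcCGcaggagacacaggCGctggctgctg

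Wnt9a: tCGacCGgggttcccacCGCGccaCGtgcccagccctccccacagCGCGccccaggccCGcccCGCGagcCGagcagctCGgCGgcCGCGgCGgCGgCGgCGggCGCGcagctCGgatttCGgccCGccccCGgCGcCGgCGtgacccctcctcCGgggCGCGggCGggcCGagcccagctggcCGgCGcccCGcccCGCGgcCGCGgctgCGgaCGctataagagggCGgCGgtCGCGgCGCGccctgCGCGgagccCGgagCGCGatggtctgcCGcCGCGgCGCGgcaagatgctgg

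Wnt11: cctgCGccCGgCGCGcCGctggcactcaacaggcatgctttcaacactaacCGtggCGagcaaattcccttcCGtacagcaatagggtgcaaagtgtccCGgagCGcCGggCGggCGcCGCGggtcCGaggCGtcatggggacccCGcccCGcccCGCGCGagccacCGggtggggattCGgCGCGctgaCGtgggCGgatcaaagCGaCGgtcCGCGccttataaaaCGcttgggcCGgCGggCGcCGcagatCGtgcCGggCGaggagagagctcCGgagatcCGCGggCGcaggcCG

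Sfrp2: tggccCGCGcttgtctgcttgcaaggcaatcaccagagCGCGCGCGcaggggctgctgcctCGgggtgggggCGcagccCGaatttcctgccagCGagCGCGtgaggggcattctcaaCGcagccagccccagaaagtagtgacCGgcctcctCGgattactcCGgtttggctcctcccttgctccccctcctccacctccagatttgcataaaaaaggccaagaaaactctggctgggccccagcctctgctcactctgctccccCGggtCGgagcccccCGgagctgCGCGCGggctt

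These windows lie at chr1:74818216-74818515, chr11:59120182-59120481, chr7:105983372-105983671 and chr3:83569993-83570292, all on the forward strand. They hold 31, 58, 45 and 22 CG dinucleotides, against a median of 7 over all 32851 windows of the table, and the 28 windows of members had a median of 26.5 (lowest 4, highest 58). The Wnt9a window held at least as many as 99.9% of all windows. Among members with other patterns, the windows of Wnt4, Fzd5 and Fzd9 held 51, 38 and 53.

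The letters ATCAAAG and TTCAAAG, which Tcf/Lef factors are known to bind, were searched on both strands. They stood in 3 of the 28 members' windows (10.7%), 1 window each of Wnt5b, Wnt11 and Dkk1, against 8.65% of all windows. In the Wnt11 window above, ATCAAAG begins at position -51 from the start. The Dkk1 window is shown with the match in capitals (TTCAAAG on the opposite strand), since Dkk1 encodes an inhibitor that is itself a known target of beta-catenin.

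Dkk1: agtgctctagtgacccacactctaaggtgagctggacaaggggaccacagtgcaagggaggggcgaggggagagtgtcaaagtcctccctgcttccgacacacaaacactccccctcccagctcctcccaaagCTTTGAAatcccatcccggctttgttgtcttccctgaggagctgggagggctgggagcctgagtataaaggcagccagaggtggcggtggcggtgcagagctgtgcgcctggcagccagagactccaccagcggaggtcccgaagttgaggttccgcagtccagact

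It lies at chr19:30623937-30624236 on the reverse strand, with the match beginning at position -117. A match in these letters is a description of the window, and the share of members with one was close to that of all promoters.

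At D0 the receptors and Sfrp1 were abundant and the ligands scarce. On a per-length scale, CPM per kilobase (kb) of exon, the 10 Frizzled genes summed to 75 to 116 and the 4 Sfrp genes to 32.5 to 133 over the 12 D0 libraries, against 5.93 to 9.81 for the 19 ligands and 1.07 to 2.89 for the Dkk genes. Among ligands in WT, Wnt6 led at D0 with 3.5 ± 0.421 CPM per kb (SD, n = 3) and took 51.3% to 54.4% of the ligand sum, followed by Wnt5b at 0.942 ± 0.0967 and Wnt7b at 0.684 ± 0.332. At D6 Wnt3 led with 26.3 ± 11.8, followed by Wnt6 at 12.2 ± 6.43 and Wnt5b at 5.77 ± 4.28. At D6 the spreads of Wnt3 and Wnt6 overlapped, as did those of Wnt6 and Wnt5b, while as shares of the ligand sum of each WT library Wnt3 took 34.2% to 42.8% and Wnt6 12.1% to 23.7%.

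**Figure D1:**
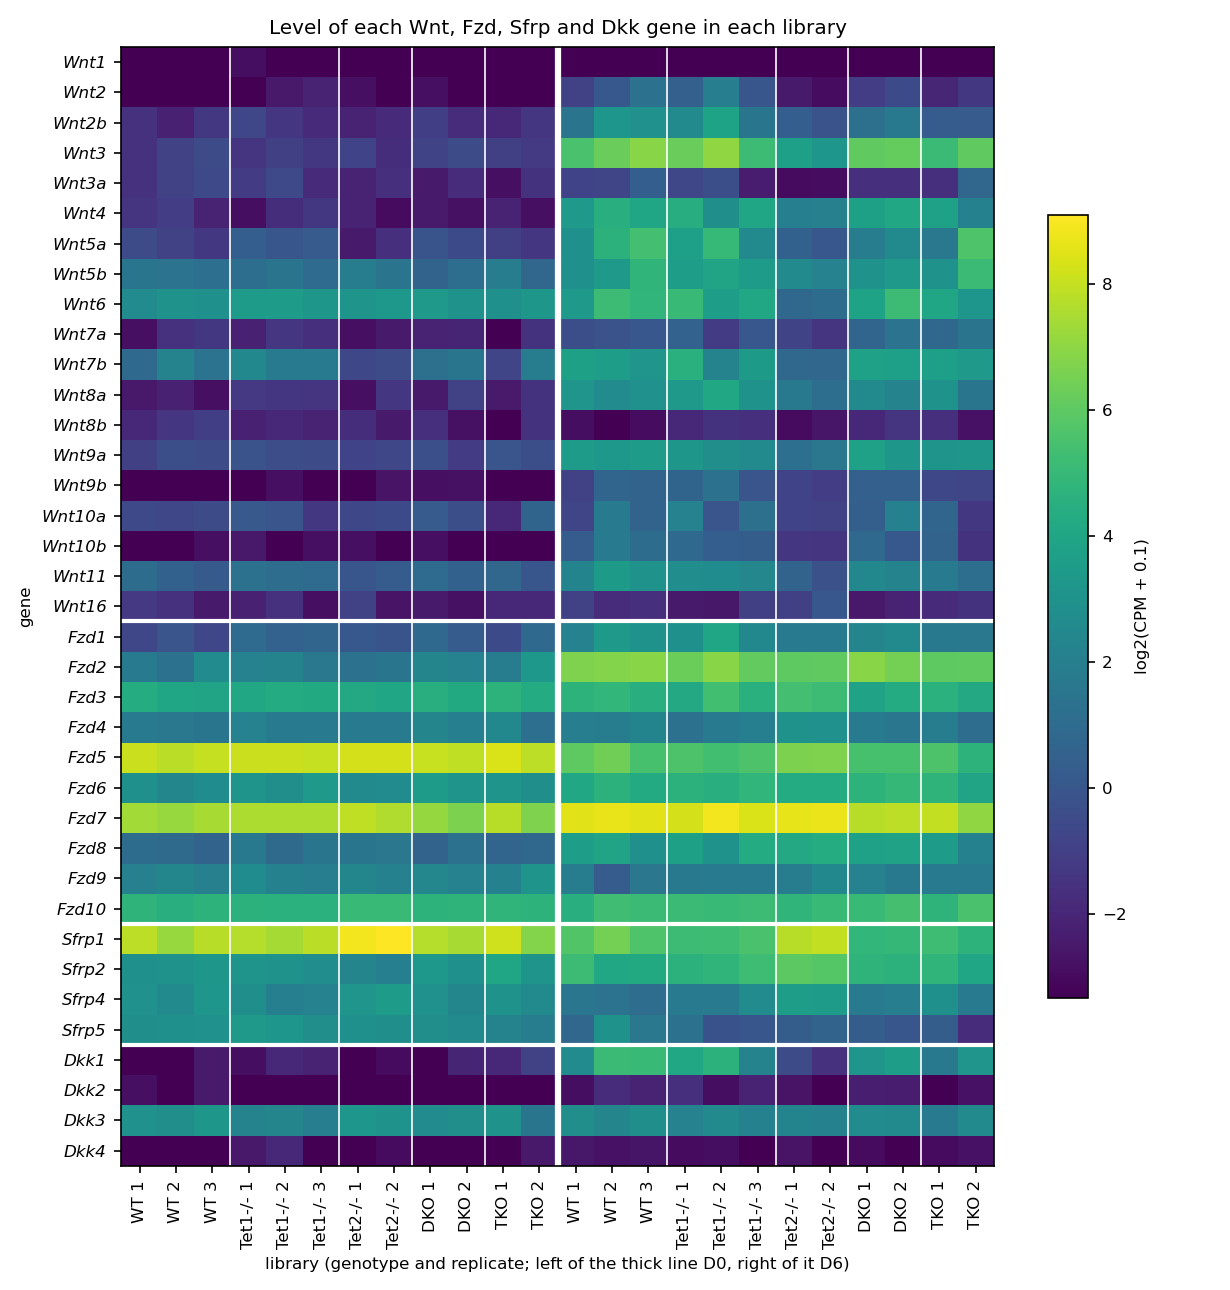
Level of each of the 37 genes (rows) in each of the 24 libraries (columns, grouped by day and genotype), coloured by log2(CPM + 0.1). Most ligand rows are dark at D0 and bright at D6, the D6 columns of Tet2-/- stay darker than their neighbours in rows such as Wnt3, Wnt6 and Dkk1, and they are brighter in Sfrp1, Sfrp2 and Sfrp4.

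Withdrawal of LIF was accompanied in WT by higher levels of most ligands and by an exchange of receptors. Called genes had an adjusted p under 0.05 and a change over 2-fold. Of the 24 members that passed the filter at D0, 13 rose and 3 fell in WT, and of the 9 that passed only with D6, 8 rose. Over all 15639 genes tested, 20.7% rose and 13.3% fell, and among genes that passed the filter at D0 16.9% rose and 14.3% fell. There the median log2 fold change was 1.54 over the 24 members and -0.07 over all genes. Without TMM scaling the median of all genes in the day comparisons lay between 0.14 and 0.21 on the log2 scale. In bulk RNA, more cells that express a gene and more RNA per cell cannot be told apart.

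The ligand with the largest level at D6 was Wnt3, the ligand of the primitive streak. At D0, Wnt3 stood at 0.242, 0.453 and 0.605 CPM in WT, 0.279, 0.410 and 0.308 CPM in Tet1-/-, 0.489 and 0.640 CPM in DKO, 0.418 and 0.330 CPM in TKO and 0.469 and 0.204 CPM in Tet2-/-. At D6, Wnt3 was at 46.3, 77.4 and 119 CPM in WT, 76.2, 130.4 and 36.6 CPM in Tet1-/-, 67.4 and 70.6 CPM in DKO, 35.6 and 66.1 CPM in TKO and 12.9 and 9.13 CPM in Tet2-/-. All D6 libraries lay far above all D0 libraries, and both Tet2-/- libraries lay below the other 10 D6 libraries. In WT the rise had a log2 fold change of 7.54 ± 0.53 (SE), edgeR adjusted p = 1.51e-09. In Tet2-/- Wnt3 also rose (edgeR adjusted p = 9.19e-06).

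Wnt6, the leading ligand of undifferentiated cells, moved in opposite directions. At D0, Wnt6 stood at 6.3, 8.02 and 7.38 CPM in WT, 11.6, 11 and 9.47 CPM in Tet1-/-, 10.4 and 8.17 CPM in DKO, 7.39 and 9.48 CPM in TKO and 8.49 and 9.73 CPM in Tet2-/-. At D6, Wnt6 was at 10.4, 36.1 and 29 CPM in WT, 32.8, 12.4 and 17.4 CPM in Tet1-/-, 14.9 and 36.4 CPM in DKO, 15.7 and 9.23 CPM in TKO and 1.67 and 1.99 CPM in Tet2-/-. The groups overlapped at D0, whereas at D6 the Tet2-/- values lay below every other library of either day. Wnt6 rose in WT (log2 fold change of 1.80 ± 0.40 (SE), edgeR adjusted p = 0.000717) and in DKO (1.46 ± 0.49, edgeR adjusted p = 0.0163), and it fell in Tet2-/- (-2.32 ± 0.53, edgeR adjusted p = 0.00213). Its neighbour Wnt10a was low, with 0.167 to 1.52 CPM at D0 and 0.299 to 4.44 CPM at D6 outside Tet2-/-, and it was called in 1 of 5 genotypes, Tet1-/-, where it went from 0.995, 0.861 and 0.308 to 4.44, 0.857 and 2.34 CPM (1.81 ± 0.75, edgeR adjusted p = 0.0404).

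Wnt4, Wnt9a and Wnt8a rose in all 5 genotypes. Wnt4, which acts in kidney and female reproductive tract development, went from 0.283, 0.370 and 0.130 to 10.5, 22.1 and 16.2 CPM in WT and from 0.128 and 0.0292 to 3.94 and 4.11 CPM in Tet2-/-, with 4.34 to 21.3 CPM in the D6 libraries of the other deletions. Wnt9a, the gene next to Wnt3a, stood at 0.404, 0.699 and 0.648 CPM in WT at D0 and at 11.5, 9.63 and 11.5 CPM at D6. In Tet2-/- it went from 0.469 and 0.526 to 2.22 and 2.93 CPM, and the other deletions held 5.74 to 13.8 CPM at D6. The WT changes were 5.93 ± 0.57 for Wnt4 (edgeR adjusted p = 6.11e-08) and 4.21 ± 0.28 for Wnt9a (edgeR adjusted p = 7.49e-10), and Wnt9a had the smallest adjusted p of all members in that comparison. Wnt8a, a ligand of the early streak, was at 0.0808, 0.123 and 0.0432 CPM in WT at D0, at or under 3 counts in each library, and at 8.93, 6.15 and 7.64 CPM at D6. Tet2-/- held 0.0427 and 0.292 CPM of Wnt8a at D0 and 3.2 and 2.13 at D6.

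Wnt5a and Wnt5b, ligands known mainly for signals without beta-catenin, were called higher at D6 in every genotype except Tet2-/-. At D6, Wnt5a was at 7.44, 24.7 and 41.2 CPM in WT, 13, 31.8 and 5.93 CPM in Tet1-/-, 3.55 and 5.78 CPM in DKO, 3.08 and 51.3 CPM in TKO and 1.32 and 0.941 CPM in Tet2-/-. Wnt5a varied widely between clones, and TKO replicate 2 was the highest library. At D0 Wnt5a ranged over 0.0853 to 1.19 CPM. Wnt5b was at 2.71, 2.51 and 2.2 CPM in WT at D0 and 7.33, 10.1 and 28 CPM at D6, and in Tet2-/- it went from 3.58 and 2.66 to 6.1 and 4.39 CPM. Both D6 values of Wnt5b in Tet2-/- thus lay above both D0 values, short of a call. Neither gene was called in the test of whether the change over the days differed between Tet2-/- and WT. In the other deletions the D6 range of Wnt5b was 7.87 to 35.5 CPM. The changes over the days in WT were 5.73 ± 0.92 for Wnt5a (edgeR adjusted p = 2.55e-05) and 2.62 ± 0.50 for Wnt5b (edgeR adjusted p = 0.000148).

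Wnt11 and Wnt7b had the same set of calls, higher at D6 in 4 genotypes and not in Tet2-/-. At D0, Wnt11 stood at 2.02, 1.36 and 1.04 CPM in WT, 2.39, 2.05 and 1.89 CPM in Tet1-/-, 1.91 and 1.33 CPM in DKO, 1.63 and 0.907 CPM in TKO and 0.896 and 1.11 CPM in Tet2-/-. At D6, Wnt11 was at 4.72, 10.9 and 8.18 CPM in WT, 6.59, 6.43 and 5.27 CPM in Tet1-/-, 5.51 and 4.6 CPM in DKO, 3.23 and 2.15 CPM in TKO and 1.44 and 0.732 CPM in Tet2-/-. Wnt11, a ligand of cell movement at gastrulation, overlapped between the days in Tet2-/-, and the days did not overlap in any other genotype. Wnt7b went from 1.82, 4.65 and 2.59 to 13.2, 12 and 8.91 CPM in WT, and from 0.555 and 0.643 to 1.67 and 1.6 CPM in Tet2-/-. Its days did not overlap in Tet2-/-, where the change was short of a call. The test of whether the change over the days differed between Tet2-/- and WT did not call Wnt7b. The other deletions held 4.61 to 23.4 CPM of Wnt7b at D6. In WT the changes were 2.42 ± 0.33 (Wnt11, edgeR adjusted p = 4.18e-06) and 1.91 ± 0.52 (Wnt7b, edgeR adjusted p = 0.00328).

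Wnt2b also rose in all 5 genotypes, from 0.242, 0.123 and 0.302 to 2.65, 9.08 and 7.61 CPM in WT and from 0.128 and 0.175 to 1.21 and 0.802 CPM in Tet2-/-, and it reached 14.4 CPM in the other deletions. Wnt7a, Wnt9b and Wnt10b also rose in all 5, to D6 ranges of 0.279 to 2.65, 0.384 to 2.46 and 0.250 to 3.23 CPM. In WT at D6, Wnt7a was at 0.690, 0.807 and 0.923 CPM, Wnt9b, a ligand of the kidney tubule, at 0.435, 1.56 and 1.46 CPM and Wnt10b at 1.13, 3.23 and 1.97 CPM. Tet2-/- held 0.489 and 0.279 CPM of Wnt7a, 0.461 and 0.384 of Wnt9b and 0.288 and 0.279 of Wnt10b. With clone as a block the Wnt7a call of Tet2-/- was lost (adjusted p = 0.0524). At D0 Wnt9b and Wnt2 had no counts in any WT library, and against a floor of 3 counts per library their WT levels at D6 were at least 9.26-fold and 10.4-fold higher. Wnt2, which was called in WT, Tet1-/- and DKO, reached 0.435, 0.958 and 2.48 CPM in WT, 1.31, 3.82 and 0.915 in Tet1-/-, 0.380 and 0.591 in DKO, 0.154 and 0.299 in TKO and 0.0864 and 0.0349 in Tet2-/-. Wnt3a, a ligand of the streak and tail bud, was called in TKO alone (2.52 ± 0.98, edgeR adjusted p = 0.0365), with 0.0418 and 0.247 CPM at D0 and 0.215 and 1.6 CPM at D6, ranges that overlapped. The D6 values of Wnt3a were 0.472, 0.504 and 1.21 CPM in WT and 0.0288 and 0.0349 CPM, 1 count each, in Tet2-/-. Over all 24 libraries Wnt16 ranged from 0.0441 to 0.941 CPM with no call, and the untested Wnt8b and Wnt1 from 0 to 0.389 and 0 to 0.0398 CPM.

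**Figure D2:**
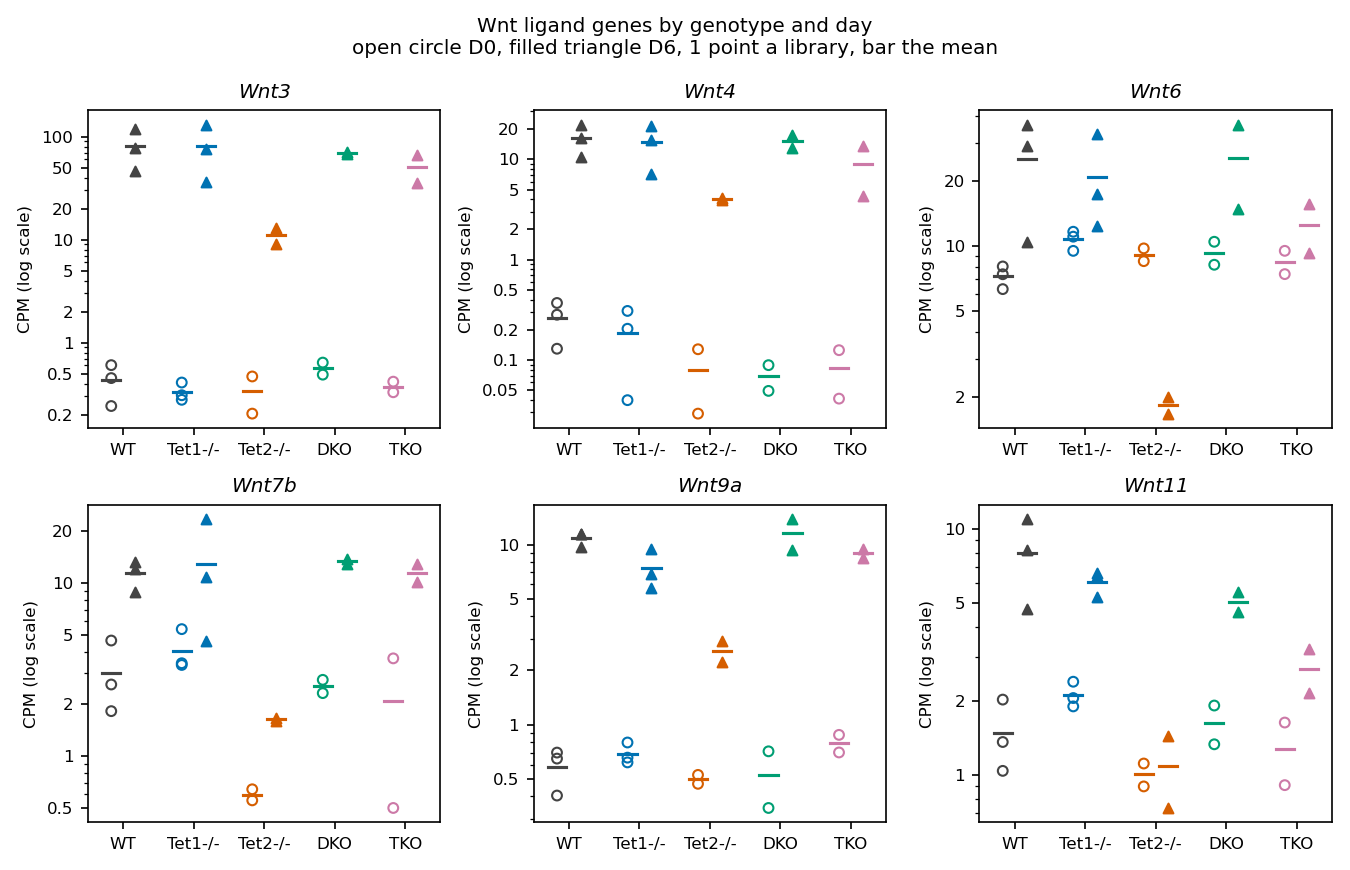
CPM (log scale) of 6 ligand genes by genotype, 1 point a library (open circle D0, filled triangle D6) with the mean as a bar. At D6 the 2 Tet2-/- libraries are the lowest of the 12 in each panel, and in Wnt6 they fall below the D0 points.

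Among receptors, the exchange was of Fzd5 for Fzd2. At D0, Fzd5 stood at 269.9, 226 and 260.1 CPM in WT, 276, 274 and 253 CPM in Tet1-/-, 262 and 237 CPM in DKO, 334 and 229 CPM in TKO and 310.0 and 312 CPM in Tet2-/-. At D6, Fzd5 was at 64.1, 84.9 and 45.3 CPM in WT, 48.8, 40.6 and 48.8 CPM in Tet1-/-, 44.9 and 43.8 CPM in DKO, 48.9 and 26.1 CPM in TKO and 102 and 105 CPM in Tet2-/-. Days did not overlap, and the Tet2-/- libraries were the highest of D6. Fzd5, a receptor needed in the yolk sac and eye, fell in WT with a log2 fold change of -1.96 ± 0.21 (SE), edgeR adjusted p = 1.86e-07, and the log2 fold changes of the other genotypes ran from -1.59 ± 0.25 (Tet2-/-) to -2.90 ± 0.26 (TKO).

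Fzd2 moved the other way. At D0, Fzd2 stood at 3.47, 2.39 and 6.26 CPM in WT, 4.46, 4.55 and 3.04 CPM in Tet1-/-, 4.98 and 4.48 CPM in DKO, 3.59 and 9.6 CPM in TKO and 2.39 and 2.72 CPM in Tet2-/-. At D6, Fzd2 was at 102, 110.0 and 118 CPM in WT, 79.5, 117 and 69.6 CPM in Tet1-/-, 119 and 91 CPM in DKO, 64.7 and 66.5 CPM in TKO and 65.5 and 66.8 CPM in Tet2-/-. Again the days did not overlap. Its change was 4.77 ± 0.33 in WT (edgeR adjusted p = 1.22e-09) and 3.31 ± 0.38 in TKO, the smallest of the 5 genotypes, where replicate 2 began higher.

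Fzd7, a receptor linked to the undifferentiated state of ESCs, was the most abundant receptor at D6 in each group. At D0, Fzd7 stood at 168, 146 and 179 CPM in WT, 190.1, 188 and 188 CPM in Tet1-/-, 139 and 99.3 CPM in DKO, 219 and 104 CPM in TKO and 241 and 198 CPM in Tet2-/-. At D6, Fzd7 was at 376, 412 and 370.1 CPM in WT, 313, 473 and 334 CPM in Tet1-/-, 216 and 231 CPM in DKO, 249.6 and 129.9 CPM in TKO and 398 and 429.8 CPM in Tet2-/-. It was called in WT (log2 fold change of 1.23 ± 0.24 (SE), edgeR adjusted p = 0.000153), while Tet1-/-, Tet2-/- and DKO had 0.98, 0.92 and 0.91, short of the 2-fold limit at edgeR adjusted p = 0.00125, 0.0159 and 0.0117. In TKO the change was 0.24 ± 0.28 (edgeR adjusted p = 0.508), and its days overlapped.

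As shares of the summed Frizzled level per kb, Fzd5 took 38.7% to 45.7% at D0 and 3.45% to 9.87% at D6, and Fzd2 took 0.570% to 3.44% and then 11.7% to 29.3%. Fzd7 took 27.6% to 43.4% at D0 and 35.9% to 57.9% at D6. In Tet2-/- the D6 share of Fzd2 was 11.7% to 12.1%, against 14.8% to 29.3% in the other D6 libraries, and the share of Fzd5 was 9.61% to 9.87% against 3.45% to 7.59%. Neither pair of ranges overlapped, but shares of a sum depend on each other. In CPM, Fzd2 of Tet2-/- at D6 (65.5 to 66.8) overlapped with the other D6 libraries (64.7 to 119). By level, both Tet2-/- libraries lay below the other 10 in 15.2% of all genes and above them in 15.1%.

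**Figure D3:**
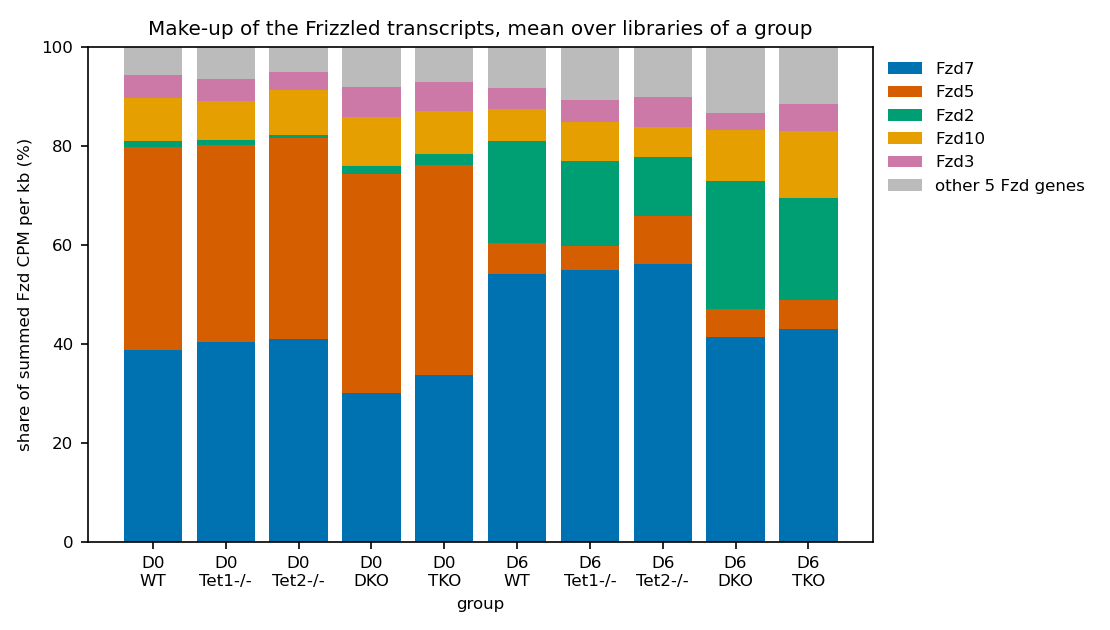
Mean share (%) of each Frizzled gene in the summed Frizzled CPM per kb for the 10 groups of day and genotype, stacked to 100%. Fzd5 and Fzd7 make up most of each D0 bar, and at D6 the Fzd5 part shrinks while the Fzd2 part widens in all 5 genotypes.

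Fzd1, Fzd6 and Fzd8 rose in all 5 genotypes. In WT Fzd1 went from 0.525, 0.864 and 0.518 to 4.46, 10.03 and 8.34 CPM, Fzd6 from 7.47, 5.06 and 6.52 to 16.7, 24.9 and 19 CPM and Fzd8 from 1.98, 1.85 and 1.47 to 12.3, 15.4 and 7.35 CPM. The Tet2-/- libraries held 3.28 and 3.38 CPM of Fzd1, 20.01 and 19.6 of Fzd6, a receptor of planar cell polarity, and 18.1 and 20.8 of Fzd8 at D6. Fzd3 and Fzd4 were called in Tet2-/- alone. Fzd3, the partner of Fzd6 in planar polarity, went from 17.8 and 15.9 to 42 and 35.9 CPM there (1.21 ± 0.28, edgeR adjusted p = 0.00242), and from 20.4, 16.2 and 14.9 to 26, 29.8 and 22.5 CPM in WT (0.60 ± 0.23, edgeR adjusted p = 0.0272). Fzd4, the Norrin receptor of retinal vessels, went from 3.29 and 3.42 to 8.29 and 7.57 CPM in Tet2-/- (1.24 ± 0.33, edgeR adjusted p = 0.00612) and from 3.39, 3.09 and 2.76 to 3.92, 3.63 and 4.77 CPM in WT. Whether the change over the days differed between these genotypes missed the threshold for both (interaction log2 0.60 ± 0.36 and 0.82 ± 0.43, edgeR adjusted p = 0.255 and 0.188). Fzd9 (1.11 to 8.41 CPM over all libraries) and Fzd10 (22.1 to 46.3 CPM) were not called in any comparison.

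Among the inhibitors, Sfrp1 fell in every genotype. At D0, Sfrp1 stood at 228, 143 and 219.7 CPM in WT, 209, 172 and 221 CPM in Tet1-/-, 212 and 178 CPM in DKO, 291 and 110.3 CPM in TKO and 473 and 546 CPM in Tet2-/-. At D6, Sfrp1 was at 52.9, 91.2 and 50.4 CPM in WT, 35.8, 37.3 and 46.5 CPM in Tet1-/-, 29.9 and 30.2 CPM in DKO, 37.6 and 25.7 CPM in TKO and 213 and 248 CPM in Tet2-/-. At both days the Tet2-/- libraries were above every other library of that day. The log2 fold change over the days was -1.61 ± 0.28 in WT (edgeR adjusted p = 6.36e-05), -1.14 ± 0.34 in Tet2-/- and -2.70 ± 0.36 in DKO. Sfrp1 made up 77.6% to 93.6% of the Sfrp level per kb at D0 and 32.9% to 65.8% at D6.

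Sfrp2 rose in 4 genotypes. At D0, Sfrp2 stood at 7.51, 8.35 and 9.37 CPM in WT, 8.43, 7.87 and 6.74 CPM in Tet1-/-, 9.82 and 7.53 CPM in DKO, 15.6 and 8.45 CPM in TKO and 4.91 and 4.0 CPM in Tet2-/-. At D6, Sfrp2 was at 36.5, 17 and 18.5 CPM in WT, 25.4, 28.2 and 37.9 CPM in Tet1-/-, 26.9 and 25.1 CPM in DKO, 27.5 and 16.1 CPM in TKO and 62.4 and 55.7 CPM in Tet2-/-. Tet2-/- held the lowest values of D0 and the highest of D6. The change was 1.52 ± 0.28 in WT (edgeR adjusted p = 0.000101) and 3.73 ± 0.37 in Tet2-/- (edgeR adjusted p = 4.02e-07), and TKO missed the 2-fold limit at 0.86 ± 0.33 (edgeR adjusted p = 0.0377).

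Sfrp4 was called in WT alone, where it fell. At D0, Sfrp4 stood at 7.67, 6.05 and 9.15 CPM in WT, 7.08, 4.02 and 4.45 CPM in Tet1-/-, 7.69 and 5.02 CPM in DKO, 8.23 and 5.81 CPM in TKO and 8.7 and 11.6 CPM in Tet2-/-. At D6, Sfrp4 was at 2.87, 2.52 and 2.1 CPM in WT, 3.45, 3.32 and 6.28 CPM in Tet1-/-, 3.42 and 3.84 CPM in DKO, 7.53 and 3.29 CPM in TKO and 12.2 and 11.5 CPM in Tet2-/-. The WT days were apart, with a log2 fold change of -1.61 ± 0.32 (SE), edgeR adjusted p = 0.000236, while the Tet2-/- value of 0.22 ± 0.36 had an edgeR adjusted p of 0.659. Sfrp5 fell in all 4 deletion genotypes, in Tet2-/- from 7.51 and 7.24 to 1.15 and 1.46 CPM, while in WT it went from 7.27, 7.49 and 7.73 to 1.6, 7.82 and 3.06 CPM without a call (edgeR adjusted p = 0.101), WT replicate 2 (clone O4.1) being the highest D6 library. The D6 libraries of Tet1-/-, DKO and TKO held 0.200 to 2.35 CPM of Sfrp5.

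Dkk1 was at or near 0 at D0, with 0 to 0.453 CPM over the 12 libraries. At D6, Dkk1 was at 6.31, 35.5 and 33.5 CPM in WT, 16.8, 25.5 and 4.67 CPM in Tet1-/-, 8.76 and 12.6 CPM in DKO, 3.17 and 8.93 CPM in TKO and 0.605 and 0.244 CPM in Tet2-/-. It was called in every genotype except Tet2-/- (edgeR adjusted p = 0.08 there), whose values lay below the other 10 libraries. Dkk3, a divergent family member, was not called. At D0, Dkk3 stood at 7.55, 6.83 and 9.5 CPM in WT, 4.58, 4.96 and 3.92 CPM in Tet1-/-, 6.18 and 6.84 CPM in DKO, 8.23 and 2.76 CPM in TKO and 9.17 and 7.89 CPM in Tet2-/-. At D6, Dkk3 was at 7.0, 4.89 and 7.13 CPM in WT, 4.38, 5.78 and 4.29 CPM in Tet1-/-, 6.24 and 5.91 CPM in DKO, 3.48 and 5.84 CPM in TKO and 4.84 and 4.29 CPM in Tet2-/-. Its days overlapped in WT. The untested Dkk4 and Dkk2 ranged from 0 to 0.164 and 0 to 0.232 CPM over all 24 libraries.

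**Figure D4:**
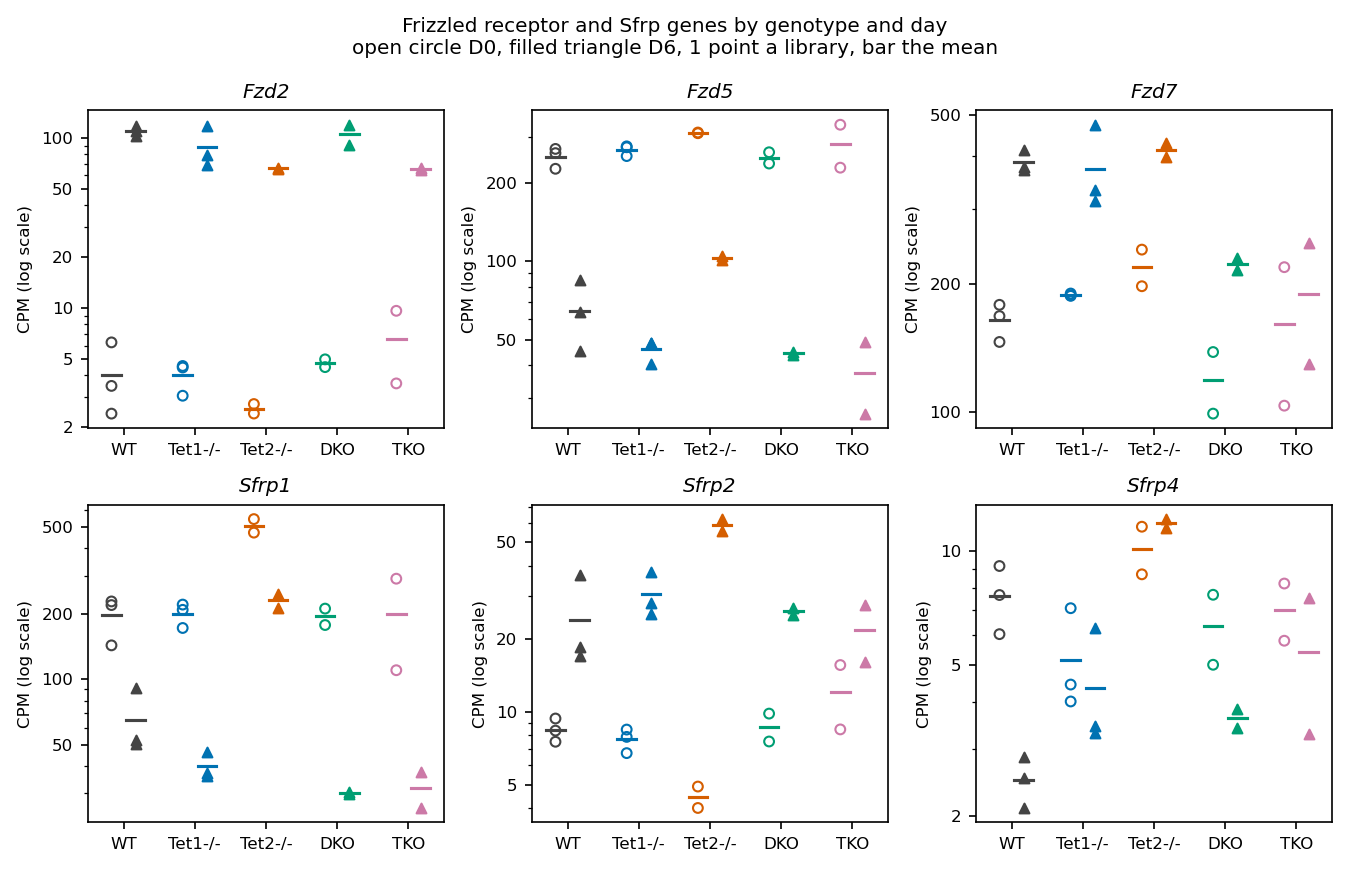
CPM (log scale) of 3 receptor and 3 Sfrp genes by genotype, 1 point a library (open circle D0, filled triangle D6) with the mean as a bar. Fzd2 and Fzd5 move in opposite directions in all 5 genotypes, and the Tet2-/- triangles are the highest D6 points in the Fzd5 and Sfrp panels.

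By genotype, 21 members rose and 3 fell in WT, against 20 and 3 in Tet1-/- (all genes 19.9% and 11.2%), 15 and 4 in Tet2-/- (12.7% and 6.44%), 20 and 3 in DKO (18.6% and 10.6%), and 18 and 3 in TKO (16.8% and 8.63%). Of the 24 members that passed the filter at D0, 12 rose in Tet1-/-, 12 in DKO, 11 in TKO and 9 in Tet2-/-. Called higher in all 5 genotypes were 12 members, Wnt2b, Wnt3, Wnt4, Wnt7a, Wnt8a, Wnt9a, Wnt9b, Wnt10b, Fzd1, Fzd2, Fzd6 and Fzd8, and called lower in all 5 were Fzd5 and Sfrp1. Of the 12, Wnt2b, Wnt4, Wnt7a, Wnt8a, Wnt9b and Wnt10b passed the filter only with D6. The other 6 and the 2 lower ones are of the 24 that passed at D0, where 6.43% and 3.01% of all 14456 genes were called higher and lower in all 5. The summed ligand level in WT was 5.93 to 7.45 CPM per kb at D0 and 41.4 to 90.3 at D6. In Tet2-/- it was 6.69 to 7.04 at D0 and 10.3 to 12.7 at D6, and in the other deletions 39 to 82.4 at D6. The ligand sum of Tet2-/- at D6 lay below each of the other 10 libraries, while its Frizzled sum (149 to 158) lay within the WT range (141 to 162) and its Sfrp sum (81.4 to 86.3) above the other D6 libraries (14.3 to 33.5).

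The genotypes were then compared at D6. Against WT, Tet2-/- had 13 members lower and 3 higher, where 9.45% of all 15435 genes were lower and 4.81% higher. Dkk1, Wnt2, Wnt3a, Wnt7a and Wnt10b would not pass the filter on the Tet2-/- libraries alone, and 4 of these 5 are among the lower members. Of the other 28, 9 were lower and 3 higher, against 7.61% and 5.26% of all genes that pass on those libraries, with a median log2 fold change of -0.98 against 0.01. The lower members were 12 ligands (Wnt2, Wnt2b, Wnt3, Wnt3a, Wnt4, Wnt5a, Wnt6, Wnt7b, Wnt8a, Wnt9a, Wnt10b and Wnt11) and Dkk1. The higher members were Sfrp1, Sfrp2 and Sfrp4. Not 1 of the 10 Frizzled genes was called. This comparison rests on 2 Tet2-/- clones, and without replicate 1 it called 4 members and without replicate 2 none, as it called 304 and 0 of all genes. Without WT replicate 3 (clone O4.13) it called 10, and without WT replicate 1, the library that stood apart, 18 (1348 and 2635 of all genes). No called member changed sign in these fits.

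Among the lower ligands, Wnt6 had a log2 fold change of -3.80 ± 0.67 (SE), edgeR adjusted p = 0.00569. Wnt5a differed by -4.43 ± 1.24 (edgeR adjusted p = 0.0244). Wnt3 differed by -2.89 ± 0.55 (edgeR adjusted p = 0.00689), Wnt11 by -2.87 ± 0.42 (0.00414), Wnt7b by -2.81 ± 0.57 (0.00809) and Wnt9a by -2.10 ± 0.28 (0.0041). In each of these 6 genes both Tet2-/- libraries were below the other 10 libraries of D6. The differences of Wnt2b, Wnt4 and Wnt8a were -2.68 ± 0.71, -2.03 ± 0.55 and -1.52 ± 0.46. Wnt2, Wnt3a and Wnt10b were called at very low levels, with at most 0.288 CPM in Tet2-/- and at most 3.23 CPM in WT. Wnt5b (-1.54 ± 0.64, edgeR adjusted p = 0.089) and Wnt9b (-1.44 ± 0.59, edgeR adjusted p = 0.0837) missed the threshold.

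Among the inhibitors, Sfrp4 was higher in Tet2-/- by 2.23 ± 0.36 (edgeR adjusted p = 0.00478), Sfrp1 by 1.82 ± 0.25 (edgeR adjusted p = 0.0041) and Sfrp2 by 1.28 ± 0.32 (edgeR adjusted p = 0.0173), and in all 3 both Tet2-/- libraries were above the other 10. Sfrp5 and Dkk3 were not called (-1.67 ± 0.76 and -0.49 ± 0.27, edgeR adjusted p = 0.116 and 0.177). Dkk1 was lower, with a log2 fold change of -5.85 ± 1.07 (edgeR adjusted p = 0.00614). Over the 33 tested members, both Tet2-/- libraries lay below all others in 11 and above all others in 5 (Fzd4, Fzd5, Sfrp1, Sfrp2 and Sfrp4), where 15.2% and 15.1% of all 15435 genes did so. The 5 of 33 above are close to the share of all genes. Among the 11, Wnt2, Wnt3a and Dkk1 would not pass the filter on the Tet2-/- libraries alone. A low Tet2-/- level was thus built into their presence in the test, and the 15.2% is not split for this.

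**Figure D5:**
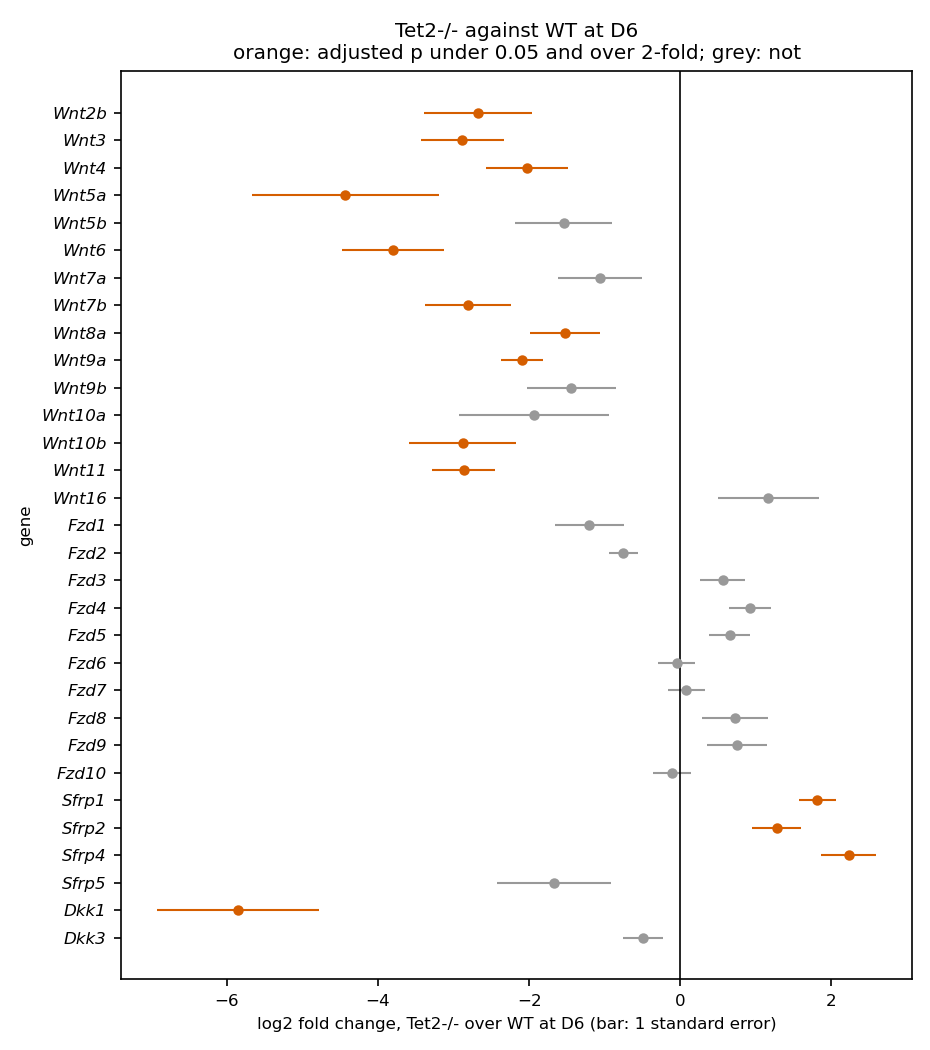
Log2 fold change of Tet2-/- over WT at D6 (point) with 1 standard error (bar) for 31 members, called genes in orange and others in grey. Wnt2 and Wnt3a are left out because their Tet2-/- libraries held at most 3 counts. The orange ligands and Dkk1 lie left of 0, the Frizzled genes are grey on both sides of it, and Sfrp1, Sfrp2 and Sfrp4 lie to the right.

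Tet2-/- was also set against the other deletions at D6, with the same 2 Tet2-/- libraries in each comparison. Against Tet1-/-, 9 members were lower and 4 higher (all genes 4.48% and 1.87%), against DKO 8 and 5 (6.37% and 3.13%), and against TKO 8 and 5 (6.01% and 2.63%). Without Dkk1, Wnt2, Wnt3a, Wnt7a and Wnt10b, which would not pass the filter on the Tet2-/- libraries alone, 7, 6 and 5 members were lower and 4, 5 and 5 higher, beside 3.76%, 5.44% and 4.83% lower and 2.07%, 3.45% and 2.9% higher of all genes that pass there. Wnt3, Wnt6, Wnt7b, Wnt9a and Dkk1 were lower and Fzd4, Fzd5 and Sfrp1 higher in all 3. For Wnt3 the log2 fold changes were -2.89 ± 0.55, -2.66 ± 0.57 and -2.22 ± 0.56, for Wnt6 -3.53 ± 0.67, -3.83 ± 0.70 and -2.81 ± 0.68, and for Sfrp1 2.52 ± 0.25, 2.92 ± 0.29 and 2.83 ± 0.29, in the order Tet1-/-, DKO and TKO. Fzd5 was higher by 1.15 ± 0.27, 1.20 ± 0.30 and 1.42 ± 0.30, and Fzd4 by 1.28 ± 0.28, 1.36 ± 0.31 and 1.41 ± 0.32, while against WT these differences were 0.65 ± 0.27 (edgeR adjusted p = 0.0865) and 0.93 ± 0.28 (edgeR adjusted p = 0.0315), neither over 2-fold. Fzd7 was higher than in TKO (1.09 ± 0.27, edgeR adjusted p = 0.0258), and Fzd3 higher than in DKO (1.18 ± 0.33, edgeR adjusted p = 0.0382). These 3 comparisons called 981, 1466 and 1334 of all genes. Without Tet2-/- replicate 2 they called 0, 1 and 0 members (2, 28 and 2 of all genes), and without replicate 1 they called 1, 3 and 1 (20, 304 and 29). Leaving out Tet1-/- replicate 1 left 6 against Tet1-/- (214 of all genes), leaving out DKO replicate 1 or 2 left 3 or 5 against DKO (246 or 584), and leaving out TKO replicate 2 left 2 against TKO (198).

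Tet1-/-, DKO and TKO had no member called against WT at D6 by edgeR, where the shares of all genes called were also 0 (0%, 0% and 0%). At an unadjusted p under 0.05 there were 4 members in Tet1-/-, 5 in DKO and 12 in TKO, beside 12.6%, 14.6% and 23.5% of all genes. DESeq2 called 0, 1 and 8 members, beside 0.3%, 1.23% and 3.28% of the genes it gave an adjusted p. The smallest edgeR adjusted p of a member was 0.331, 0.176 and 0.0756. In TKO this was Fzd7 (-1.01 ± 0.25), whose D6 libraries held 249.6 and 129.9 CPM against 376, 412 and 370.1 CPM in WT, followed by Wnt11 (-1.53 ± 0.38) and Sfrp1 (-1.02 ± 0.26). Without WT replicate 1 (clone O4.2) the TKO comparison called 7 members and 721 of all genes, and without TKO replicate 1 (clone 8.4) it called 2 and 266.

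At D0 few members differed. Sfrp1 was higher in Tet2-/- than in WT (log2 fold change of 1.35 ± 0.30 (SE), edgeR adjusted p = 0.0216) and Wnt7b lower (log2 fold change of -2.34 ± 0.67 (SE), edgeR adjusted p = 0.0468), 1 member in each direction of the 24 tested, where 0.816% and 2.37% of all 14456 genes were called. With the libraries of both days in 1 fit, the Wnt7b call was lost (edgeR adjusted p = 0.0577). Sfrp2 had a log2 fold change of -0.94 ± 0.25 (edgeR adjusted p = 0.0381), short of the 2-fold limit. Leaving out either Tet2-/- library, or WT replicate 2 or 3, ended both calls. No member was called in Tet1-/- (0.00692% of all genes), DKO (0.0346%) or TKO (3.15%) against WT at D0 by edgeR. DESeq2 also called none, beside 0.369%, 0.781% and 3.43% of all genes, and 5, 2 and 2 members had an unadjusted p under 0.05, beside 12.6%, 14.4% and 26.4%. In TKO Sfrp5 (-0.86 ± 0.20, edgeR adjusted p = 0.0209) passed the p limit but not the 2-fold limit, and without TKO replicate 1 (clone 8.4), 6 members and 1147 of all genes were called, with 1 member and 850 genes called without replicate 2.

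Whether a deletion changed the response to LIF withdrawal was tested as the difference between its change over the days and that of WT. In Tet2-/- 5 members passed, 3 with a lower and 2 with a higher change, where 5.13% and 3.54% of all 15639 genes did. Of these 5, Wnt6 had the largest difference, -4.11 ± 0.67 (log2, edgeR adjusted p = 0.00222), then Wnt11 with -2.30 ± 0.54 (edgeR adjusted p = 0.0109) and Wnt9a with -1.86 ± 0.45 (edgeR adjusted p = 0.0122). The higher ones were Sfrp2 with 2.22 ± 0.44 (edgeR adjusted p = 0.00574) and Sfrp4 with 1.83 ± 0.49 (edgeR adjusted p = 0.0184). Wnt3 and Dkk1, called at D6, missed the threshold here (edgeR adjusted p = 0.111 and 0.502), beside D0 levels of at most 0.605 and 0.0864 CPM in these genotypes. With clone as a block 8 members passed in Tet2-/-, the 5 named ones among them (1618 of all genes, against 1357 without the block), and DESeq2 called 9, with the 5 among them (11.6% of all genes). Leaving out any 1 Tet2-/- library of either day left 3 members past the threshold, Wnt6 and Sfrp2 always among them (408 to 766 of all genes), and leaving out WT replicate 1 of D6 gave 8 (2096 of all genes).

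In Tet1-/-, DKO and TKO no member passed this test by edgeR, beside 0%, 0% and 3.58% of all genes. At an unadjusted p under 0.05 there were 2, 6 and 9 members, beside 7.67%, 8.02% and 23.6% of all genes, and DESeq2 called 0, 0 and 3, beside 0.116%, 0.132% and 5.33%. In TKO the lowest adjusted p values were those of Fzd1 (-2.19 ± 0.68, edgeR adjusted p = 0.0608), Fzd2 (-1.46 ± 0.47, 0.0676) and Fzd5 (-0.94 ± 0.32, 0.0824). With clone as a block 3 members passed in TKO, where 783 of all genes did, against 560 without the block. Leaving out single libraries gave 0 to 5 members in TKO, the 5 without TKO replicate 2 of D0 (1041 of all genes), 3 without WT replicate 1 of D6 (1146), 2 without TKO replicate 1 of D0 or D6 (563 or 410), and 1 without WT replicate 3 of D0 or D6 (324 or 302) or TKO replicate 2 of D6 (558).

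Genes of the pathway outside these families were grouped by role, and against WT at D6 the edgeR calls below are all of Tet2-/-. The counts of each group stand beside 20.7% of all genes higher and 13.3% lower in WT over the days, and 9.45% lower and 4.81% higher in Tet2-/- than in WT at D6. Of 13 other secreted modulators, 11 were tested, of which 4 rose and 2 fell in WT over the days, and 6 were lower and 0 higher in Tet2-/- than in WT at D6. Frzb, Cer1 and Rspo3, 3 of the 4 that rose, passed the filter only with D6, so their rise was built in, and Cer1 and Rspo4, 2 of the 6 lower ones, would not pass on the Tet2-/- libraries alone. Without such genes 1 of 7 rose and 2 fell in WT, beside 16.9% and 14.3% of all genes, and 4 of 7 were lower in Tet2-/-, beside 7.61%. Frzb, an Sfrp relative, went from 0.0544 ± 0.0471 to 24.4 ± 14.2 CPM in WT (SD, n = 3) and was at 1.46 ± 0.383 CPM in Tet2-/- at D6 (SD, n = 2), a difference of -4.07 ± 0.85. Cer1, an antagonist of Nodal, Bmp and Wnt, had no counts in WT at D0, 38 ± 24.9 CPM in WT at D6 and 0.643 ± 0.515 CPM in Tet2-/- (-5.85 ± 1.00). Rspo3, which enhances Wnt signals, rose by 6.97 ± 1.03 in WT and was at 1.74 ± 0.835 CPM against 24.8 ± 14.3 CPM at D6 (-3.83 ± 1.17).

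Of 13 co-receptors and genes of receptor turnover, 6 rose and 0 fell in WT, and 4 were lower in Tet2-/- at D6. Lgr5, an R-spondin receptor and itself a target, rose by 5.15 ± 0.72 in WT and differed by -3.46 ± 0.65 in Tet2-/-, and it passed the filter only with D6 and would not pass on the Tet2-/- libraries alone. Rnf43, the ubiquitin ligase that removes Frizzled receptors, rose by 3.92 ± 0.33 and differed by -2.23 ± 0.32. Ror1, a Wnt5a receptor, rose by 3.08 ± 0.46, and Ptk7 of planar polarity was lower in Tet2-/- (-1.23 ± 0.24). Of 5 genes of Wnt secretion and sharing, 3 rose in WT and 2 were lower in Tet2-/-. Wls, the carrier that brings Wnt proteins to the cell surface, went from 10.3 ± 1.58 to 116 ± 43.2 CPM in WT and was at 25.1 ± 2.86 CPM in Tet2-/- (-2.22 ± 0.36). The glypican Gpc6 rose by 4.90 ± 0.53 and differed by -1.55 ± 0.47, and Gpc3 rose by 3.08 ± 0.96.

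Of 18 genes that relay the signal in cytoplasm and nucleus, 6 rose in WT, and in Tet2-/- 1 was lower and 1 higher than in WT at D6. Lef1, a factor that pairs with beta-catenin, rose by 4.73 ± 0.43, Bcl9l by 2.42 ± 0.23 and Tcf7 by 1.66 ± 0.23, and the called differences of Tet2-/- were Bcl9l (-1.58 ± 0.30) and Pygo1 (1.37 ± 0.36), cofactors of beta-catenin. Of 9 planar polarity genes, 2 rose in WT, Prickle1 (3.33 ± 0.42) and Vangl2 (1.20 ± 0.13), against 20.7% of all genes, and Celsr3 was higher in Tet2-/- at D6 (1.49 ± 0.40) as it was at D0 (1.01 ± 0.27, edgeR adjusted p = 0.0395). Of 10 feedback and textbook targets, 5 rose and 1 fell in WT, and 4 were lower in Tet2-/-. T rose by 8.81 ± 0.66 and differed by -3.83 ± 0.67, Sp5 rose by 6.56 ± 0.55 and differed by -3.78 ± 0.66, Nkd1 rose by 3.47 ± 0.45, and Axin2 was at 58.1 ± 21.2 CPM in WT and 19 ± 3.48 CPM in Tet2-/- at D6 (-1.62 ± 0.38). The change over the days also differed from WT for Axin2 (-1.78 ± 0.44), Sp5 (-3.20 ± 1.00) and Nkd1 (-2.31 ± 0.67), 3 of the 10, where 5.13% of all genes had a lower and 3.54% a higher change.

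Lineage markers moved with the same groups. At D6 the summed level of 8 primitive streak and mesoderm markers was 276 to 914 CPM in WT, 159 to 1022 CPM in Tet1-/-, DKO and TKO and 67 to 102 CPM in Tet2-/-, where 7 of the 8 were lower than in WT. The 8 endoderm markers summed to 77.3 to 288, 32.4 to 171 and 21 to 25.3 CPM (4 of 6 tested lower in Tet2-/-, Ttr at 0 there), and the trophectoderm markers to 756 to 1748, 680.0 to 1296 and 186 to 214 CPM (7 of 8 lower, Elf5 at 0 in Tet2-/-). Eomes and Hand1 stand in both the mesoderm and the trophectoderm list, and T in both the mesoderm list and the textbook targets above. Among genes that pass the filter on the Tet2-/- libraries alone, 5 of 5 mesoderm, 3 of 5 endoderm and 6 of 7 trophectoderm markers were lower. Of all genes that pass there, 7.61% were lower. Smooth muscle and fibroblast markers summed to 311 to 697, 234 to 680.2 and 109 to 115 CPM (5 of 8 lower). Markers of undifferentiated ESCs summed to 761 to 1575, 887 to 1611 and 1997 to 2189 CPM (1 of 8 higher and 1 lower), and neuroectoderm markers to 251 to 496, 167 to 324 and 365 to 384 CPM (3 of 6 tested higher). These counts stand beside 9.45% of all 15435 genes lower and 4.81% higher. The 1 of 8 ESC markers in each direction is not far from those shares. The ligand sums and the mesoderm sums of Tet2-/- were both below those of every other D6 library, and the part of cell composition in the ligand levels was not tested.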

How the data were processed

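Total RNA was extracted with Trizol, and polyadenylated RNA was made into NEBNext Ultra libraries. Per the labels and the study's methods, the authors mapped paired reads to mm9 with STAR 2.5.1. The deposited tables hold raw counts per RefSeq transcript row (31928 rows), 1 table for each day. The counter is given as featureCounts in one source and HTSeq in another, and whether strand was used is not given in the sources used here, so reads of overlapping genes cannot be told apart. The first row of each of 22926 symbols was used (4911 symbols have more than 1). Other rows of Wnt5a, Wnt5b, Wnt7b, Wnt11, Fzd5 and Fzd6 held 77.8% to 113% of the first row's counts. No row lacked a gene name.

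Counts were tested in R 4.3.3 with edgeR 4.0.16 (quasi-likelihood test, TMM scaling, filterByExpr with a minimum count of 10) on all genes: 12 libraries of a day for comparisons within a day (14456 genes at D0, 15435 at D6), and 24 libraries for comparisons between days and for interactions (15639 genes). Genes with a Benjamini-Hochberg adjusted p under 0.05 and over 2-fold were called, as in the study's methods. SE is the log2 fold change divided by the root of the F statistic. There were 20 comparisons, each adjusted over its own genes. CPM use the TMM factors of the 24-library fit, and CPM per kb divides by the summed exons of GENCODE vM1. Plots were drawn with matplotlib 3.10.9. The fit was checked on simulated data.

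Groups came from the sample labels. Library totals are 18400463 to 37290208 counts. No 2 libraries of a group agreed within sampling noise. The labels name the clone, so D0 and D6 libraries of 1 clone are paired (11 pairs, correlation of deviations 0.0813 to 0.193, 10 of 11 over 0.1), and a fit with clone as a block was an alternative. In Tet2-/-, DKO and TKO, with 2 clones each, both pairs share 1 correlation by construction (0.122, 0.176 and 0.193). The 11 are therefore not separate values. The members, lists and tests were chosen with earlier results of these data known. Every member is accounted for, with values by library for members called in some comparison or leading their class by CPM per kb, and ranges for the others. For Dkk4, which is untested, only the range is given. Alternatives were DESeq2 1.42.0, library totals without TMM, no filter on low counts, the row with the highest total per symbol, a replicate block, 1 fit of both days, and leaving out each library. Protein sequences were not analysed here.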

Additional observations from a re-analysis of the deposited data

Results flagged for a closer look

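In 5 members the change from D0 to D6 differed between Tet2-/- and WT by edgeR's interaction test. The log2 difference (Tet2-/- minus WT) was -4.11 ± 0.67 (SE) for Wnt6 (adjusted p = 0.00222), -2.30 ± 0.54 for Wnt11 (adjusted p = 0.0109) and -1.86 ± 0.45 for Wnt9a (adjusted p = 0.0122). It was 2.22 ± 0.44 for Sfrp2 (adjusted p = 0.00574) and 1.83 ± 0.49 for Sfrp4 (adjusted p = 0.0184). Wnt6 rose in WT and fell in Tet2-/-, while Sfrp4 fell in WT and was not called in Tet2-/-. Wnt6 and Sfrp2 passed the threshold in every alternative that was run, and Sfrp4, Wnt11 and Wnt9a lost it in 4, 2 and 3 of the fits without 1 library. Dixon's test was not applied, since no group held over 3 libraries, and D6 WT replicate 1, which differed from the other WT libraries of D6 by a mean chi-square per gene of 53.1 and 54.8 against 14.5 between those, is in the values above. Without it, 8 members passed in Tet2-/-, the 5 named ones among them.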

How the results depend on the processing

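No called member changed direction in any alternative. Of 917 values of called members under alternatives other than a left-out library, 910 kept the call, and of 843 with a library left out, 632 did. Members that were called only under an alternative are not in these numbers and show in the counts that follow. Leaving out single libraries, the number of members called over the days ranged from 24 to 26 in WT, 22 to 24 in Tet1-/-, 14 to 18 in Tet2-/-, 20 to 22 in DKO and 17 to 20 in TKO. Against WT at D6 it ranged from 0 to 18 in Tet2-/- and 0 to 7 in TKO, and at D0 from 0 to 3 in Tet2-/- and 0 to 6 in TKO. For Tet2-/- at D6 it ranged from 0 to 19 against Tet1-/-, 1 to 5 against DKO and 0 to 15 against TKO. The interaction counts ranged from 3 to 8 in Tet2-/- and 0 to 5 in TKO. DESeq2 called 1 member in DKO and 8 in TKO against WT at D6, 20 in Tet2-/- against Tet1-/-, and 9 (Tet2-/-) and 3 (TKO) in the interactions. The fit of both days called 4 members in TKO against WT at D6 and 1 in Tet2-/- against WT at D0, where Wnt7b had an adjusted p of 0.0577. With clone as a block, 8 (Tet2-/-) and 3 (TKO) members passed in the interactions, and beside Wnt7a in Tet2-/- over the days no other named call was lost under it. Whether libraries with the same replicate number within a day share a preparation is not given in the sources used here. Their correlations ran from -0.0718 to 0.312 at D0 (median 0.134) and from -0.377 to 0.312 at D6 (median -0.045). With the number as a replicate block, Tet2-/- had 17 members called against WT, 12 against Tet1-/-, 12 against DKO and 10 against TKO at D6, and the adjusted p became 0.0609 for Fzd5 against Tet1-/-, 0.0668 for Wnt4 against DKO, and 0.0568, 0.0654 and 0.0666 for Dkk1, Wnt3a and Wnt5a against TKO. The cause of these shifts was not tested. At D0, 13 of the 37 members did not pass the filter on low counts and were not tested.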
